A study of Mus musculus with 6 samples.

Results

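Semaphorins are guidance ligands that were first described in the nervous system and that also steer endothelial cells during vessel growth. The genes described here are the 20 semaphorins, 9 plexins and 2 neuropilins given by symbol, 31 of the 24520 genes in the deposited tables, and they were measured in RNA from lung endothelial cells sorted from mice. The 3 libraries labelled WT (genotype wt) and the 3 labelled KO (genotype ko, for the DNA methyltransferase gene Dnmt3a) are compared; they are called WT and KO below, and values per library follow the order of replicates 1, 2 and 3. The sources used here do not name the allele, the promoter of any Cre, the strain, sex and age of the mice or the gate of the sort. They also do not say whether each library is a separate animal. A p-value here sets the difference between the labels against the spread among these libraries, which may be technical in part.

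Class 3 semaphorins are secreted and mostly signal through a neuropilin, which binds the ligand, paired with a plexin, whose cytoplasmic part switches off small GTPases of the R-Ras and Rap family. Classes 4, 5 and 6 are transmembrane proteins and Sema7a is tethered to the membrane by a lipid anchor; these bind plexins directly. In endothelium the neuropilins serve as co-receptors for VEGF as well, and Plxnd1 is the plexin known for its role in patterning vessels.

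Library totals ran from 28136194 to 39999172 estimated counts. Dnmt3a itself ran against the labels, at 1079 to 1235 counts under WT and 4750 to 5090 under KO (log2 fold change 2.22, SE 0.11, edgeR adjusted p = 0.00157), so KO and WT are labels here, and each direction below is KO relative to WT. Endothelial markers were abundant in each library, 8907 to 10536 CPM summed over 7 genes. Markers of other cells were present too. The 10 fibroblast markers summed to 147 to 207 CPM under WT and 301 to 447 CPM under KO, with 6 of 10 higher without overlap and 1 called. The 7 lymphatic endothelial markers summed to 357 to 690 and 985 to 1305 CPM, with 1 of 5 tested genes higher without overlap. Over all tested genes, 10.9% were higher without overlap and 0.0341% were called by edgeR. Alveolar type 2 markers ranged from 330 to 9293 CPM under WT and 764 to 3595 CPM under KO. The 7 macrophage and dendritic cell markers summed to 22.4 to 430 CPM under WT and 31.1 to 188 CPM under KO; 3 of them, Marco, Csf1r and Itgax, had at most 3 counts in any library. In bulk RNA, fewer cells of a type and less RNA per cell cannot be told apart.

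Over all genes, edgeR's quasi-likelihood test called 5 of 14667 tested genes at an adjusted p under 0.05, which is 0.0341%. Of the 31 members, 28 passed the filter on low counts and 1 was called, Sema3b, which was lower under KO. Of all tested genes, 0.0205% were called higher and 0.0136% lower. The 3 members that did not pass the filter were Sema3d, Sema4b and Plxnb3. The median log2 fold change of the 28 was 0.13, beside 0.01 over all tested genes, with 18 above 0 and 10 below. The unadjusted edgeR p was under 0.05 for 7 of the 28, a larger share than the 12.6% of all tested genes. The list was made with earlier results of these data known. The 2 groups of libraries did not overlap in CPM for 5 of the 28 members (17.9%), against 20.3% of all tested genes. By this measure the members' share was near the background. The 5 were Sema3a and Sema3b, both lower (9.42% of all tested genes were lower without overlap), and Sema6b, Sema7a and Plxna2, all higher (10.9%). DESeq2, run as an alternative, called these 5 members among 29 that it tested, while it called 2.79% of all genes, 1.47% higher and 1.31% lower. KO replicate 2 stood at the end of the range for many members. In TPM it was the highest of the 6 libraries for Sema3c, Sema3f, Sema3g, Sema4g, Sema5a, Sema6a, Sema6b, Sema7a, Plxna1 and Plxna2. It was the lowest for Sema3a, Sema3b, Sema4d, Plxna3 and Plxnb1. No share over all genes was computed for either list, so neither shows a trait particular to the members. Without KO replicate 2, edgeR still called 1 member, Sema3b.

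**Figure D1:**
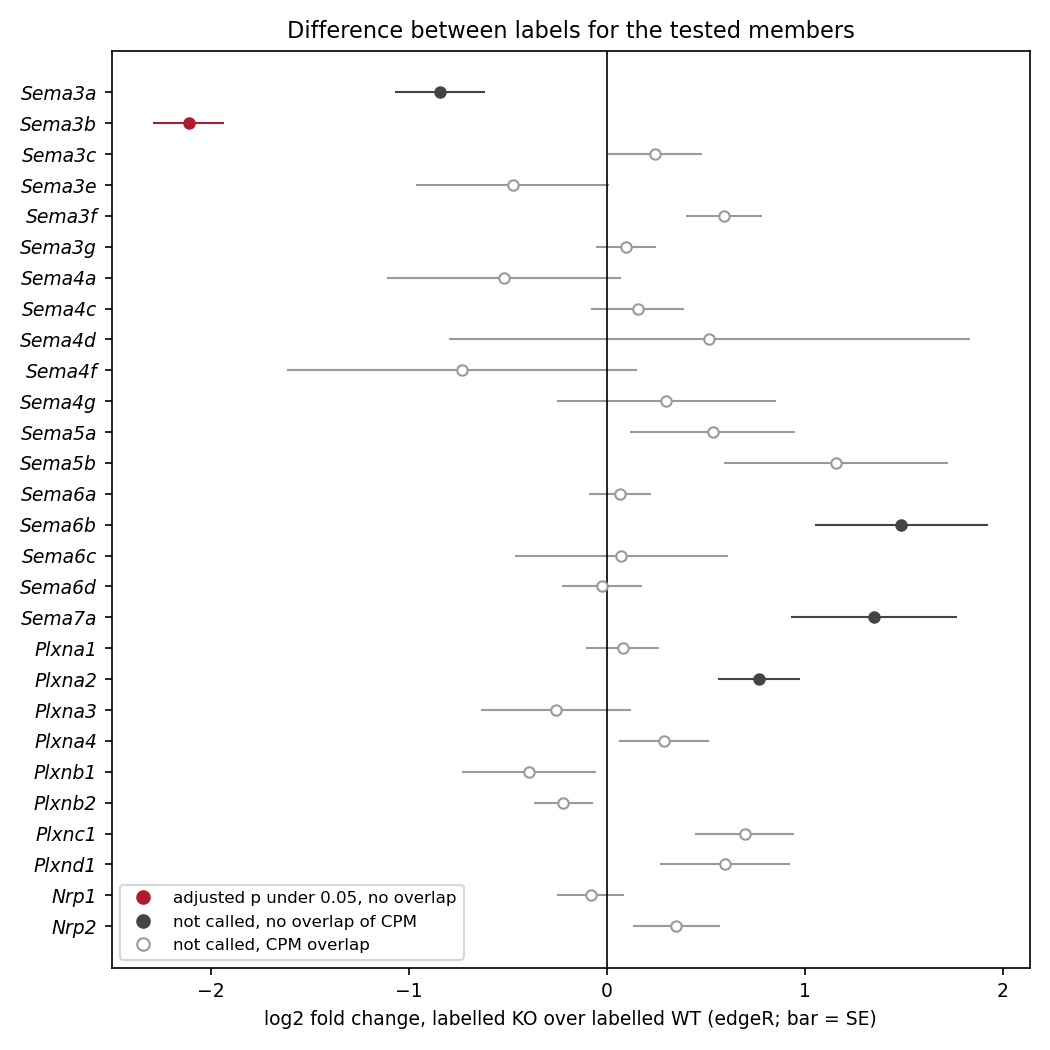
Log2 fold change of the 28 tested members, libraries labelled KO over libraries labelled WT (horizontal axis, edgeR; bars are standard errors), with filled points where the CPM of the 2 groups did not overlap and red for an adjusted p under 0.05. Sema3b stands at -2.11 while the other 27 lie between -0.84 and 1.49.

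Sema3b, a secreted ligand known as a candidate tumour suppressor and as a ligand of both neuropilins, was the one member called. Its gene (ENSMUSG00000057969) is protein-coding and lies on mm10 chromosome 9, 107597674 to 107609229, minus strand, with no other annotated gene overlapping it. Per length, it was at 56.6, 65.1 and 69.6 TPM under WT and at 18.9, 12.5 and 17.1 TPM under KO. Each library labelled KO was thus below each labelled WT, and KO replicate 2 was the lowest. In estimated counts the same libraries held 3048, 3154 and 4694 against 837, 602 and 791. The fitted level was 4.32-fold higher under WT (log2 fold change -2.11, SE 0.18, edgeR adjusted p = 0.016).

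The call of Sema3b depended on the libraries included, although its size did not. It was kept without KO replicate 2 (log2 fold change -1.97, adjusted p = 0.0423) and lost without any one of the other 5 libraries, where the log2 fold change was -2.22 to -2.00 and the adjusted p 0.0581 to 0.156. The alveolar type 2 marker sums overlapped between the labels, and the fibroblast and lymphatic marker sums were higher under KO. The part of any of these cell types in the result for Sema3b was not tested.

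Among the secreted ligands, Sema3b ranked 4 of 7 per length in every library, under WT and under KO. Sema3c, a ligand of the heart outflow tract and of vessels, led the class in all 6 libraries, at 239, 202 and 303 TPM under WT and 269, 395 and 267 TPM under KO. The 2 groups overlapped for Sema3c, and KO replicate 2 was the highest (log2 fold change 0.24, SE 0.24, adjusted p = 0.689). Sema3g, a class 3 semaphorin known from arterial endothelium, was at 101, 134 and 99.9 TPM under WT and 118, 142 and 115 TPM under KO. Its groups overlapped as well (log2 fold change 0.09, SE 0.15, adjusted p = 0.816).

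Sema3f, which prefers neuropilin 2 and restrains blood and lymphatic vessel growth, is the member that lies nearest to Sema3b in the genome. It was at 80.9, 94.1 and 76.1 TPM under WT and at 99.3, 154 and 141 TPM under KO. The groups did not overlap in TPM but did in CPM, and the gene was not called (log2 fold change 0.59, SE 0.19, adjusted p = 0.324). Under WT Sema3f was 1.43, 1.44 and 1.09 times as abundant per length as Sema3b, and under KO 5.24, 12.3 and 8.23 times. The ratio did not overlap between the labels, with a difference of 2.63 on the log2 scale (exact permutation p = 0.1, two-sided, the smallest p that 3 against 3 allows; adjusted p = 0.1 over 7 such tests). The ratio of Sema3c to Sema3b was 3.10 to 4.35 under WT and 14.2 to 31.6 under KO. That of Sema3g was 1.44 to 2.05 and 6.21 to 11.3, each with the same exact permutation p of 0.1. All of these ratios are taken over Sema3b, whose difference was known when they were chosen. They largely restate that difference and are not separate evidence of it.

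Sema3b made up 11.8%, 13.1% and 12.6% of the summed class 3 TPM under WT and 3.73%, 1.78% and 3.16% under KO. The mean share was 12.5 ± 0.676% against 2.89 ± 1.01% (mean ± SD, n = 3 each, exact permutation p = 0.1, two-sided), and the shares did not overlap. Like the ratios, this share largely restates the known difference of Sema3b. The sum of the 6 other class 3 genes was 425 to 482 TPM under WT and 488 to 692 TPM under KO. That sum also did not overlap (exact permutation p = 0.1), with KO replicate 2 the highest, while the total of the class overlapped between the labels, at 482 to 551 and 507 to 704 TPM. A TPM value is a share of its library, so a sum over genes moves with what else the library holds.

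**Figure D2:**
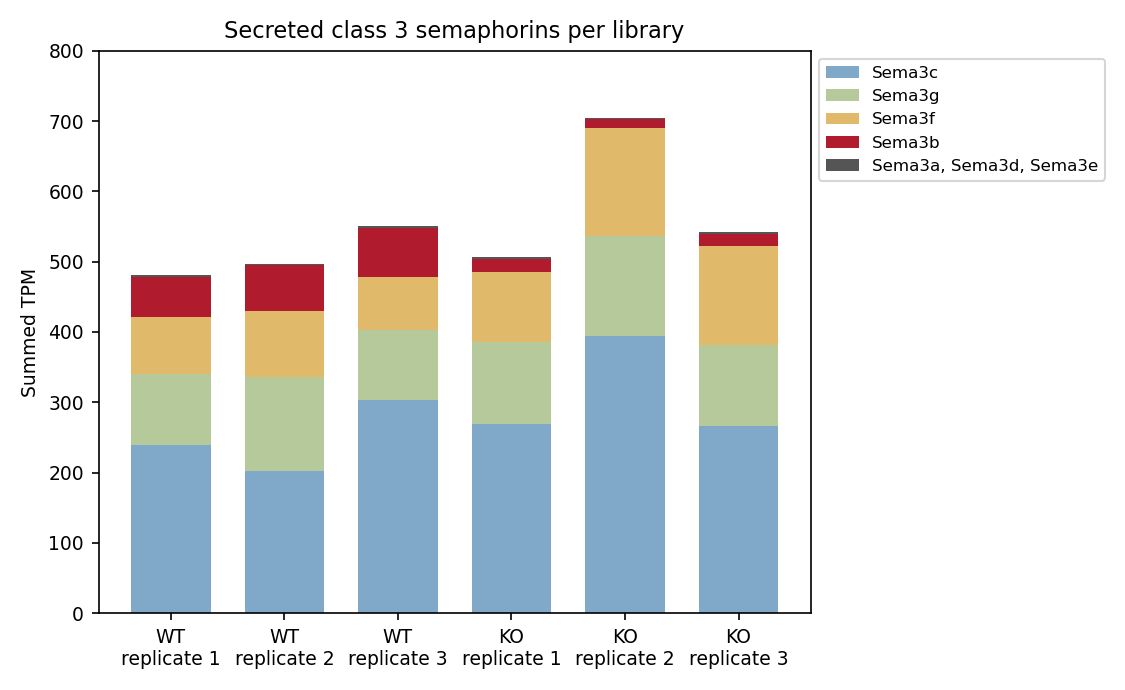
Summed TPM of the secreted class 3 semaphorins in each library (stacked bars, 1 bar per library, linear axis from 0). The red segment, Sema3b, is 56.6 to 69.6 TPM under WT and 12.5 to 18.9 TPM under KO, while Sema3c, Sema3g and Sema3f make up most of each bar.

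The other 3 class 3 genes were scarce. Sema3a, which repels growing axons and inhibits endothelial migration through neuropilin 1, was at 1.91, 2.01 and 1.84 TPM under WT and 1.28, 0.83 and 1.20 TPM under KO. All 3 libraries labelled KO were below all 3 labelled WT (276, 273 and 345 against 153, 123 and 168 counts), and edgeR did not call it (log2 fold change -0.84, SE 0.23, adjusted p = 0.293; DESeq2 adjusted p = 0.0409). Over the alternatives its adjusted p ran from 0.0409 to 0.647. Sema3e, which binds Plxnd1 without a neuropilin, had 70 to 258 counts under WT and 82 to 137 under KO, with WT replicate 1 the highest (log2 fold change -0.48, SE 0.49, adjusted p = 0.704). Sema3d had 3 to 35 counts under WT and 0 to 20 under KO and was not tested by edgeR.

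Of the membrane-bound semaphorins, Sema7a differed most among the abundant genes without being called. Sema7a, the lipid-anchored semaphorin that binds Plxnc1 and integrin beta 1, was at 12.7, 12.2 and 11.4 TPM under WT and at 15.8, 54.9 and 25.7 TPM under KO. All 3 libraries labelled KO were higher, and they differed widely among themselves, with KO replicate 2 far above the other two (log2 fold change 1.35, SE 0.42, adjusted p = 0.317; DESeq2 adjusted p = 0.0259). Without KO replicate 2 the log2 fold change was 0.71, and over the alternatives the adjusted p ran from 0.0259 to 0.675.

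Sema6b, a class 6 semaphorin that binds A-type plexins, had 52, 115 and 114 counts under WT and 146, 339 and 227 counts under KO. The groups did not overlap, and KO replicate 2 was again the highest (log2 fold change 1.49, SE 0.44, adjusted p = 0.3005; DESeq2 adjusted p = 0.0446; range over the alternatives 0.0446 to 0.664). Without that library the log2 fold change was 1.15. Per length it was at 0.70 to 1.69 TPM under WT and 2.32 to 4.997 TPM under KO. Sema6a and Sema6d, class 6 ligands of A-type plexins, were much more abundant and overlapped between the labels. Sema6a was at 132, 138 and 114 TPM under WT and 122, 167 and 133 TPM under KO (log2 fold change 0.07, SE 0.15, adjusted p = 0.878). Sema6d was at 70.8, 66.2 and 43.9 TPM under WT and 72.3, 47.2 and 67.4 TPM under KO (log2 fold change -0.02, SE 0.20, adjusted p = 0.972). A long noncoding gene on the other strand, 4930517E11Rik, overlaps Sema6d and held 59 to 118 counts per library. Sema6c stayed under 1 TPM in each library (18 to 41 counts; log2 fold change 0.07, SE 0.54).

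Sema4c, a ligand of Plxnb2, was the only class 4 gene above 3 TPM in any library, at 24.9, 31.4 and 17.6 TPM under WT and 31.9, 20.6 and 34.0 TPM under KO (log2 fold change 0.16, SE 0.23, adjusted p = 0.805). The other 5 had low counts. Sema4d, the ligand of Plxnb1 known from lymphocytes, had 0 to 31 counts, Sema4a 19 to 102, Sema4f 5 to 63 and Sema4g 8 to 23. Sema4b had 177 counts in WT replicate 1, 43 in KO replicate 3 and 1 to 7 in the other 4. No class 4 gene was without overlap between the labels, beside 20.3% of all tested genes. Of class 5, whose members carry thrombospondin repeats, Sema5a was at 4.65, 2.90 and 8.52 TPM under WT and 7.42, 11.2 and 6.27 TPM under KO, with overlap (log2 fold change 0.53, SE 0.42, adjusted p = 0.612). Sema5b had 23 to 25 counts under WT and 21 to 79 under KO (log2 fold change 1.16, SE 0.56, adjusted p = 0.433).

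**Figure D3:**
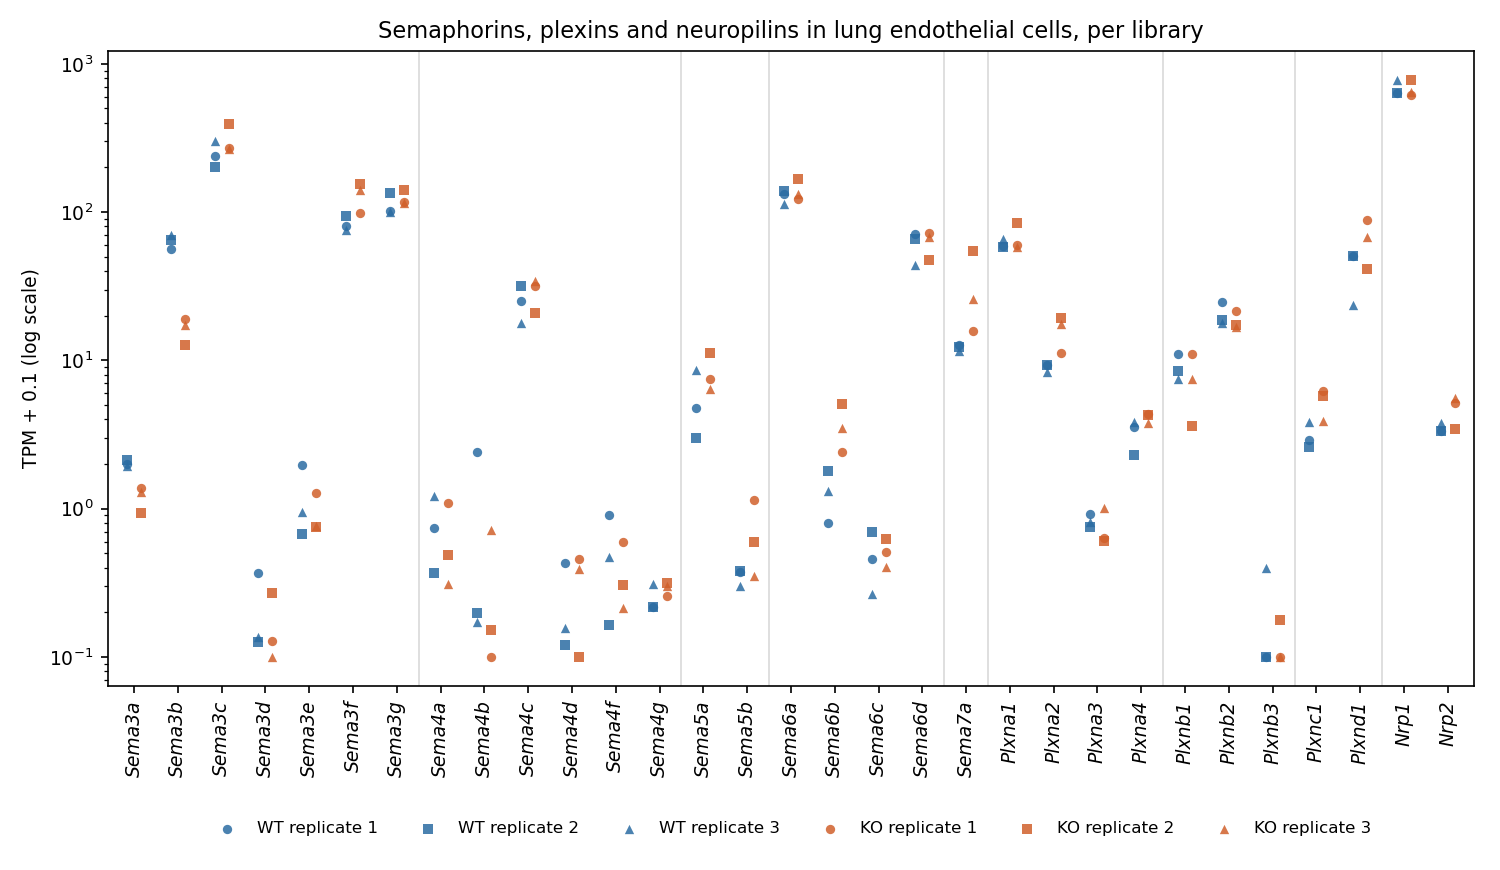
TPM plus 0.1 of all 31 members in each library (log axis; blue WT, orange KO, marker shape gives the replicate number; grey lines separate the classes). Nrp1 is the highest at 620 to 782 TPM, and the 3 KO points of Sema3b (12.5 to 18.9 TPM) lie below its 3 WT points (56.6 to 69.6 TPM).

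The receptors were led by Nrp1, the neuropilin that binds Sema3a and VEGF-A. It was the most abundant of all 31 members, at 638, 632 and 782 TPM under WT and 620, 772 and 644 TPM under KO. The groups overlapped over almost their whole range (log2 fold change -0.08, SE 0.17, adjusted p = 0.863). Nrp2, the neuropilin of veins and lymphatics that binds Sema3f and VEGF-C, was at 3.26, 3.26 and 3.66 TPM under WT and 5.06, 3.33 and 5.48 TPM under KO (log2 fold change 0.35, SE 0.22, adjusted p = 0.526). Nrp1 thus made up 99.2% to 99.6% of the neuropilin TPM in the 6 libraries. Its TPM was 194 to 214 times that of Nrp2 under WT and 117 to 232 times under KO.

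Of the plexins, Plxna1 and Plxnd1 were the most abundant. Plxna1, a signalling partner of Nrp1 and of Sema6d, was at 58.7, 57.8 and 65.4 TPM under WT and 59.7, 84.2 and 58.5 TPM under KO (log2 fold change 0.08, SE 0.18, adjusted p = 0.877). Plxnd1 was at 50.4, 50.4 and 23.7 TPM under WT and 88.0, 41.5 and 67.6 TPM under KO, so that the groups overlapped through KO replicate 2 (log2 fold change 0.60, SE 0.33, adjusted p = 0.474). Together these 2 genes made up most of the plexin sum in each library: Plxna1 gave 29.5% to 49.997% and Plxnd1 18.1% to 43.6%.

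Plxna2, a receptor of Sema6a, was the only plexin without overlap in CPM, 1 of 8 tested (12.5%, against 20.3% of all tested genes). It was at 9.26, 9.26 and 8.27 TPM under WT and at 11.2, 19.1 and 17.4 TPM under KO. The 3 libraries labelled WT lay close together while KO replicate 1 lay nearest to them (log2 fold change 0.77, SE 0.21, adjusted p = 0.293; DESeq2 adjusted p = 0.0354; range over the alternatives 0.0354 to 0.664). Without KO replicate 2 the log2 fold change was 0.61. Plxnc1, the receptor of Sema7a, was at 2.80, 2.49 and 3.74 TPM under WT and 6.15, 5.65 and 3.78 TPM under KO (log2 fold change 0.70, SE 0.25, adjusted p = 0.342). WT replicate 3 and KO replicate 3 were nearly level in TPM, and in CPM the groups overlapped.

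Of the 3 B-type plexins, which bind class 4 semaphorins and Sema5a, the 2 that were tested had negative log2 fold changes. Plxnb2 was at 24.8, 18.6 and 17.7 TPM under WT and 21.3, 17.2 and 16.6 TPM under KO (log2 fold change -0.22, SE 0.15, adjusted p = 0.555). Plxnb1 was at 10.9, 8.35 and 7.38 TPM under WT and 10.9, 3.51 and 7.38 TPM under KO, with KO replicate 2 the lowest (log2 fold change -0.39, SE 0.34, adjusted p = 0.644). Plxnb3 had no count in 4 libraries, 45 in WT replicate 3 and 9 in KO replicate 2. Plxna4 was at 2.19 to 3.74 TPM under WT and 3.70 to 4.23 TPM under KO (log2 fold change 0.29, SE 0.23), and an antisense gene, Plxna4os1, overlaps it with 73 to 161 counts. Plxna3 had 50 to 99 counts per library (log2 fold change -0.26, SE 0.38). The summed plexin TPM was 131 to 161 under WT and 176 to 202 under KO without overlap (exact permutation p = 0.1, two-sided). The summed TPM of the 19 semaphorins other than Sema3b was 675 to 686 and 743 to 999, also without overlap (exact permutation p = 0.1). KO replicate 2 had the highest semaphorin sum. No share over all genes was computed for overlap in TPM. The median log2 fold change over all tested genes was 0.055 by limma on log2(TPM + 1) and 0.0086 by edgeR.

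Sema3b sits among 17 measured genes whose start sites lie within 250 kb of its own on chromosome 9 (GENCODE M21, mm10). None of the 17 was called by edgeR or by DESeq2, beside 0.0341% and 2.79% of all genes they tested. With shares this low, the lack of a call among 17 genes says little about the region. The unadjusted edgeR p was under 0.05 for 2 of the 17, Tusc2 and Sema3f, a share near the 12.6% of all tested genes. Tusc2 was close to a call by DESeq2 (edgeR log2 fold change 0.70, DESeq2 adjusted p = 0.0531). The log2 fold changes of the 17 ran from -0.75 to 0.77, with a median of 0.22, against -2.11 for Sema3b. The nearest measured start sites on either side were those of Ifrd2 at 21.6 kb (log2 fold change 0.04, SE 0.12) and of Gnai2, a G protein alpha subunit, at 26.1 kb (0.22, SE 0.19). Rassf1, which encodes a Ras-association domain protein, lies 57.7 kb away (0.06, SE 0.18). Slc38a3, an amino acid transporter at 60.3 kb, had the lowest value after Sema3b, with 96 to 276 counts under WT and 41 to 127 under KO (log2 fold change -0.75, SE 0.50, adjusted p = 0.551). Tusc2 and Hyal3 were higher without overlap, 2 of 17 beside 10.9% of all tested genes, which is near the background. Sema3f, whose start site is 101 kb from that of Sema3b, was on the positive side.

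**Figure D4:**
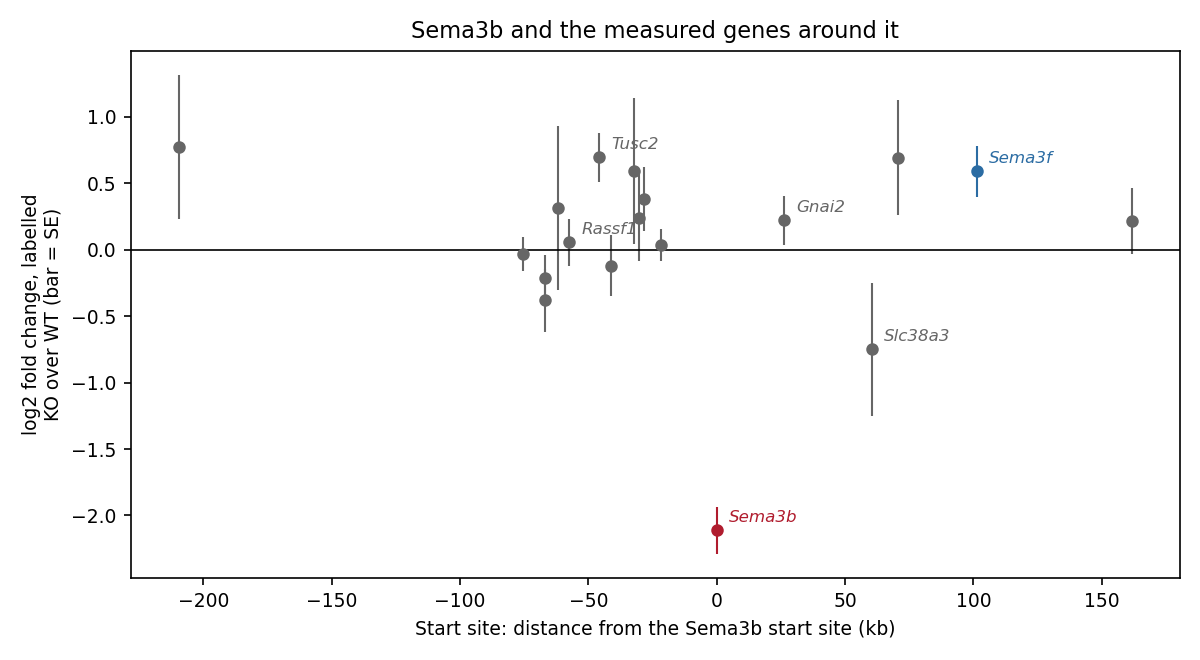
Log2 fold change (vertical axis, edgeR, bars are standard errors) of Sema3b and of the 17 measured genes around it, by the distance of their start sites from that of Sema3b in kb. Sema3b lies at -2.11 and the 17 others between -0.75 and 0.77.

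Promoter sequences bear on a study of a DNA methyltransferase through their CG dinucleotides, the sites that these enzymes methylate, though methylation was not measured in these libraries. RefSeq start sites on GRCm38.p6 gave 300-base windows, from 250 bases before to 50 after the start, for 26 of 31 members. Plxna1, Plxna4, Sema3b, Sema3f and Sema6a had no entry. The motif searched was CG, which reads the same on both strands. The 37 windows of the members held 2 to 42 CG with a median of 15, beside a median of 7 over 32851 windows of the table, of which 94.6% held at least 1. The windows of Sema6b and Sema7a are shown because these were the 2 largest positive differences without overlap and each starts at the GENCODE start, and that of Sema3g because it is an abundant class 3 relative of Sema3b whose groups overlapped. Capitals mark each CG, and the sequences read 5′ to 3′ on the gene's strand.
Sema6b, chr17:56140294-56140593, minus strand: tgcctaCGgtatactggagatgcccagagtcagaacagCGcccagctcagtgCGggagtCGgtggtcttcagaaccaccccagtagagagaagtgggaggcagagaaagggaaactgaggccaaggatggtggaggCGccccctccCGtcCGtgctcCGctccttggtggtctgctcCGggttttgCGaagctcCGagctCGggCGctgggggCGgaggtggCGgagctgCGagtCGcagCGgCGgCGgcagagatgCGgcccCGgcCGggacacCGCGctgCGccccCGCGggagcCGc
Sema7a, chr9:57939862-57940161, plus strand: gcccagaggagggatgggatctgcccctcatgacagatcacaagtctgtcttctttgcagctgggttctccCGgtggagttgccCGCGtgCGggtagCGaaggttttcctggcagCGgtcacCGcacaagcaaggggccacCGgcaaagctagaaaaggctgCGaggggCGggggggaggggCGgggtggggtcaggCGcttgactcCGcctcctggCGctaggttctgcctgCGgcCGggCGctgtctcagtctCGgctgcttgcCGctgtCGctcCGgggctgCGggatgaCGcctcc
Sema3g, chr14:31217623-31217922, plus strand: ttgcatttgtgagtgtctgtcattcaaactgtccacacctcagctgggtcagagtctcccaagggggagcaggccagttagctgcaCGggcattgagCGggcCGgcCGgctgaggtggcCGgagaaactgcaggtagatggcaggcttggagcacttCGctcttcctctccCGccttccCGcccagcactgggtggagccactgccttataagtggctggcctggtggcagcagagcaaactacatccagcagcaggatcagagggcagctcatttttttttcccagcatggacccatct
The Sema6b window shown held 29 CG, a count that 12.9% of all windows reached, and the Sema7a window held 23, reached by 21.5%. Another Sema6b window, whose start lies 6491 bases downstream of the GENCODE start, held 6 CG, reached by 56.4%. The Sema3g window held 8, reached by 48.65% of all windows. High counts were not limited to members without overlap: the window of Sema3c held 42 and that of Nrp2 held 37. Sema3a, lower without overlap, had 2 CG in its window, which lies 271370 bases downstream of the GENCODE start of the gene. Which start sites are used in these cells was not tested.

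The wider pathway was described from 53 further genes, of which 49 were tested. Of these 49, edgeR called 0, beside 0.0341% of all tested genes. The unadjusted edgeR p was under 0.05 for 10 of the 49, a larger share than the 12.6% of all tested genes. DESeq2 called 4 of the 49, Vegfc and Mical2 higher and Ptk7 and Sh3bp1 lower, beside 2.79% of all genes. The groups did not overlap for 13 of the 49 (26.5%, against 20.3% of all tested genes), 7 higher and 6 lower, and the median log2 fold change was 0.04.

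Among 17 receptors, ligands and co-receptors that pair with neuropilins or plexins, 14 were tested, with a median log2 fold change of 0.15. Kdr, the main VEGF receptor of endothelium, was at 355, 366 and 369 TPM under WT and 310, 310 and 372 TPM under KO (log2 fold change -0.21, SE 0.13). For Itgb1, the integrin subunit that Sema7a engages, the log2 fold change was -0.06 (SE 0.17), and for its partner Itga1 it was 0.18 (SE 0.27). Vegfc, the lymphatic growth factor that binds Nrp2, was at 31.7, 28.4 and 18.7 TPM under WT and 48.1, 42.0 and 53.7 TPM under KO (log2 fold change 0.81, SE 0.19, adjusted p = 0.282), higher in each library labelled KO. Flt1, a VEGF receptor that holds back signalling through Kdr, was higher in the same way (log2 fold change 0.48, SE 0.14, adjusted p = 0.3005). Ptk7, a pseudokinase that pairs with plexins, was at 19.3, 18.0 and 14.6 TPM under WT and 14.6, 7.57 and 9.21 TPM under KO, close together at WT replicate 3 and KO replicate 1 (log2 fold change -0.81, SE 0.23, adjusted p = 0.293). Cd72, a receptor of Sema4d on B cells, had 16 to 21 counts under WT and 21 to 34 under KO (log2 fold change 0.85, SE 0.45).

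None of the 4 convertases that cleave class 3 semaphorins was called or without overlap. Beside 0.0341% called by edgeR and 20.3% without overlap over all tested genes, this says little about so short a list. Furin was at 33.1 to 34.1 TPM under WT and 33.7 to 35.3 TPM under KO (log2 fold change -0.04, SE 0.10). Pcsk5 had a log2 fold change of -0.20 (SE 0.20), Pcsk7 of -0.12 (SE 0.22) and the scarce Pcsk6 of 0.51 (SE 0.58).

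Of 32 intracellular partners, 31 were tested, and their median log2 fold change was -0.0044. Dpysl2, a collapsin response mediator that relays Sema3a signals to the cytoskeleton, was the most abundant at 965 to 1112 TPM under WT and 995 to 1101 TPM under KO (log2 fold change -0.07, SE 0.12). For the GTPase Rhoa the value was 0.04 (SE 0.11). The GTPases Rac1 and Rap1b, the latter a substrate of plexin GAP domains, were higher without overlap (0.31, SE 0.11, and 0.46, SE 0.15; adjusted p = 0.342 and 0.327). Sh3bp1, a Rac GTPase-activating protein that acts downstream of Sema3e and Plxnd1, was at 8.51, 9.14 and 14.1 TPM under WT and 4.72, 5.17 and 3.95 TPM under KO. Every library labelled KO was lower, and edgeR did not call it (log2 fold change -1.28, SE 0.27, adjusted p = 0.24; DESeq2 adjusted p = 0.00268). Mical2 and Mical1, flavoenzymes of the family that oxidises actin, went opposite ways without overlap. The log2 fold change of Mical2 was 0.77 (SE 0.19, adjusted p = 0.282) and that of Mical1 was -0.48 (SE 0.13, adjusted p = 0.293). Rhod, a small GTPase, had 139 to 159 counts under WT and 57 to 91 under KO (log2 fold change -0.88, SE 0.32, adjusted p = 0.342).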

How the data were processed

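RNA of sorted lung endothelial cells was sequenced in 6 libraries, 3 per label. Per the labels' protocols, cDNA was made with a SMARTer kit for little RNA and read in pairs on a HiSeq. The authors deposited estimated counts per Ensembl gene, in whole numbers and not normalized, and TPM values, whose columns sum to 875864 to 885609. The submitters' processing notes name kallisto and mm10; the sources used here do not give its version, the annotation, the summing of transcripts or the use of strand.

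GENCODE M21, which is on that assembly, gave symbols and coordinates for 24298 of 24520 identifiers. Counts were tested with edgeR 4.0.16 (R 4.3.3): quasi-likelihood test, TMM factors, filterByExpr, no covariate, Benjamini-Hochberg adjustment over 14667 genes at 0.05. The standard error is the log2 fold change divided by the square root of F. CPM values are TMM-scaled, and overlap of groups was judged on CPM unless TPM is named. Single values were compared by exact permutation tests over libraries. Levels of different genes are compared in TPM only. With 3 counts as the floor, 0.075 to 0.1066 CPM could not be told from 0; such floors cover counting error only, as amplified reads are not independent molecules.

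The members and lists were chosen with earlier results of these data known. All members are named; of each pathway list, those called, the 4 highest in mean TPM and up to 4 without overlap with the largest differences; of the neighbours, any that passed the filter. Genes whose promoters are shown were chosen after their values were seen. Alternatives were DESeq2 1.42.0, edgeR with RLE factors, with library size only, unfiltered, with mean counts of 50 or more, or with a replicate block, limma 3.58.1 on log2(TPM + 1), on log2(TPM + 0.1) and with a TPM filter, and leaving out each library.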

Additional observations from a re-analysis of the deposited data

How the results depend on the processing

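Sema3b was lower in the libraries labelled KO under each of the 15 alternatives, with log2 fold changes of -2.22 to -1.93 and adjusted p-values of 4.14e-23 to 0.165. Its call was lost in 5 of the 6 fits that left out a library (log2 fold changes over the 6 fits -2.22 to -1.97) and with the replicate number as a block (-2.12, adjusted p = 0.165). Same-numbered libraries did not deviate together in every pair (correlations of 0.282, -0.0477 and -0.18), so the numbers were not taken as pairs. With the block, edgeR called 0 genes and 0 members (1472 genes and 6 members at an unadjusted p under 0.05), and the log2 fold change of Dnmt3a was 2.23 (adjusted p = 0.0679). The number of called genes was 412 by DESeq2 (5 members and 4 pathway genes), 9 by limma on log2(TPM + 0.1) and 1 to 4 without a library, where 0 to 1 members were called; the cause was not tested. The Sema3b share of class 3 semaphorin TPM differed by -9.61 percentage points, by -10.03 to -9.05 without a library, by -6.29 in CPM and by -6.62 of all semaphorin TPM. No called value reversed. Depth limits Sema3d, Sema4b, Sema4d and Plxnb3, each with 3 or fewer counts in some library.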
